A study of Mus musculus with 4 samples.

Results

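The genes described here encode the cytosolic translation elongation factors eEF1A (Eef1a1 and Eef1a2), eEF1B (Eef1b2, Eef1d and Eef1g) and eEF2 (Eef2), together with the translationally controlled tumour protein Tpt1 and the cytosolic poly(A)-binding protein Pabpc1. They were chosen by symbol, and all 8 were found among the 16472 genes of the table. RNA sequencing had been performed on skeletal muscle of wild-type mice (genotype WT), with 2 libraries of isolated mitochondria (titled SM-mito) and 2 of the fraction titled SM-total, whose treatment label names tissue without its mitochondria. The second group is called remaining tissue here. The sources differ on what it held: a legend of the study speaks of lysates of total muscle, while the label speaks of tissue depleted of mitochondria. No further treatment, strain, sex or age was given by the labels, and nothing states that the libraries came from separate animals, so p-values measure the spread between these libraries, which may be technical.

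Elongation factors carry the ribosome along an mRNA. eEF1A brings aminoacyl-tRNA to the ribosome as a GTP complex, eEF1B is the exchange factor that recharges it, and eEF2 moves the ribosome by a codon. Adult muscle fibres, heart and neurons are known to replace Eef1a1 by its paralogue Eef1a2, while fibroblasts, immune cells and most other cell types use Eef1a1. The mRNAs of most of these genes are known TOP mRNAs, which start with a cytidine followed by a run of pyrimidines, a feature shared with ribosomal protein mRNAs through which the mTOR pathway and Larp1 set their translation.

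To show this feature, the first 100 bases of the longest protein-coding transcript of each gene (GENCODE M21, GRCm38) were searched on the transcript strand for at least 8 consecutive C or T. Such a run was found in 7 of the 8 genes, and Tpt1 held none in this window. The same run occurred in 32.2% of all 21852 protein-coding genes, in 53.7% of 82 cytosolic ribosomal protein genes and in 12 of 13 other TOP mRNAs (92.3%). Annotated starts are not measured cap sites, and a run inside the window is a description only. The 30 bases around the longest run are given for both eEF1A isoforms, Eef2 and Pabpc1, 5′ to 3′ with the run in capitals. They lie in exon 1, in the 5′ untranslated region, at chr9:78481654-78481683 (minus strand) for Eef1a1, chr2:181156980-181157009 (minus strand) for Eef1a2, chr10:81176634-81176663 (plus strand) for Eef2 and chr15:36608944-36608973 (minus strand) for Pabpc1.
Eef1a1: gccttggacgTTCTTTTTCgcaacgggttt
Eef1a2: gctcactggTTCTCTCCCTCgctccggtgc
Eef2: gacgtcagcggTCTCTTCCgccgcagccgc
Pabpc1: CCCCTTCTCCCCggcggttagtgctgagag
The run began at base 52 of the annotated Eef1a1 transcript, at base 15 of Eef1a2 and of Eef2, and at base 1 of Pabpc1. Both eEF1A isoforms thus carried a pyrimidine run, and it does not distinguish them.

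Values are deposited normalized counts, that is, read counts divided by a size factor of each library and rounded to whole numbers. The libraries of isolated mitochondria held 42750120 and 35305296 reads, of which 95.3% and 94.1% fell on the mitochondrial genome. Outside it lay 2019886 and 2077777 reads, of which only 78394 and 147763 fell on nuclear protein-coding genes. Nuclear protein-coding genes, here and below, leave out genes named Gm followed by a number. Remaining tissue held an estimated 15702509 and 15300373 reads, with 22.3% and 20.5% on the mitochondrial genome. In isolated mitochondria 1 read was worth 9.05 normalized counts in replicate 1 and 5.06 in replicate 2, and the least covered genes described here rested on 10 and 30 reads (Eef1b2) and 13 and 27 reads (Eef1d) there. The groups were compared with limma on log2(normalized count + 1) over the 6916 genes with a mean of at least 20, all 8 genes included. Log2 changes below are isolated mitochondria minus remaining tissue, on this scale, with the standard error (SE) and the Benjamini-Hochberg adjusted p.

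Under the deposited scaling, Eef1a1 rose and Eef1a2 fell in isolated mitochondria, while the other 6 genes did not pass the test; scaled to the total of all genes, mitochondrial RNA included, Eef1a1 was lower as well. These are 1 of 8 genes higher, against 7.32% of all genes tested, and 1 of 8 lower, against 9.30%. The groups did not overlap for 7 of the 8 genes, against 69.1% of all genes tested. The median log2 change was 0.24 over the 8 genes and -0.44 over all genes tested.

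Eef1a1 (ENSMUSG00000037742, chr9:78478449-78489151, minus strand), the isoform of most tissues, had 178 and 178 normalized counts in remaining tissue against 1394 and 1594 in isolated mitochondria. Both libraries of isolated mitochondria stood far above both of remaining tissue. The ratio of means was 8.39, and the log2 change was 3.06 (SE 0.18, limma adjusted p = 0.00616). A larger change was seen in 288 of the 6879 nuclear genes tested (4.19%). Its reads in isolated mitochondria were 154 and 315, which made up 1968 and 2135 per 1000000 reads of nuclear protein-coding genes, compared with 116 and 119 per 1000000 in remaining tissue.

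Eef1a2 (ENSMUSG00000016349, chr2:181147653-181157014, minus strand), the isoform of muscle and neurons, had 2358 and 2404 normalized counts in remaining tissue against 498 and 749 in isolated mitochondria. Every library of remaining tissue stood above every library of isolated mitochondria, whose own values differed by more than those of remaining tissue. The level was 3.82-fold lower by the ratio of means, with a log2 change of -1.96 (SE 0.26, limma adjusted p = 0.0225). A more negative change was seen in 816 of the 6879 nuclear genes (11.9%). Per 1000000 reads of nuclear protein-coding genes it took 1538 and 1601 in remaining tissue against 703 and 1003 in isolated mitochondria, and when libraries were scaled to that total the change was -0.90 and no longer passed the test (adjusted p = 0.0643).

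**Figure D1:**
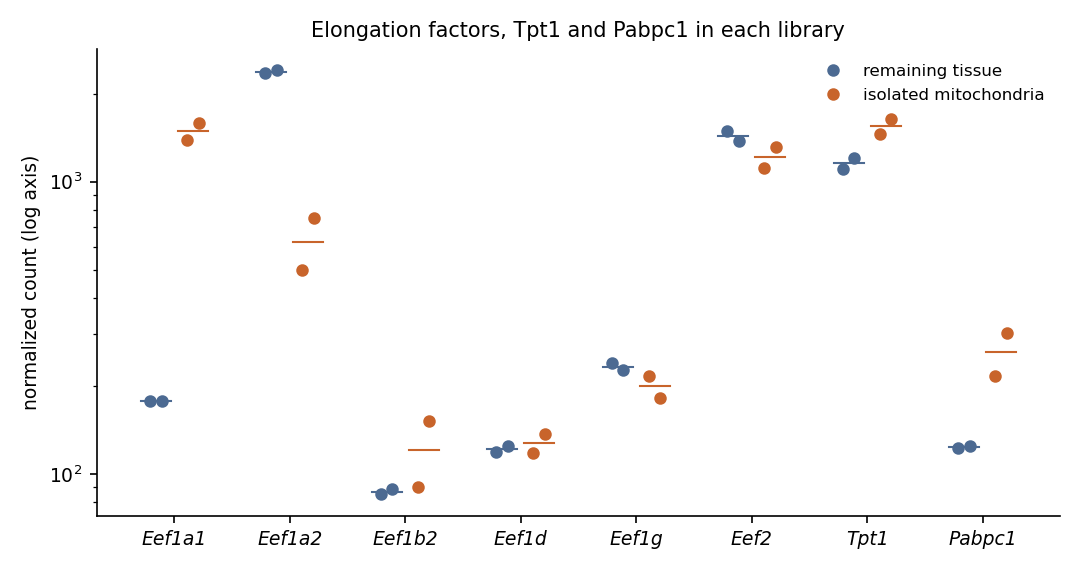
Normalized counts (log axis) of the 8 genes in each library, with points for single libraries and short lines for the mean of the 2 libraries of a group. Eef1a1 goes from 178 in both libraries of remaining tissue to 1394 and 1594 in isolated mitochondria, Eef1a2 goes the other way, and the groups overlap only for Eef1d; scaled to the total of all genes, Eef1a1 is lower in isolated mitochondria.

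The isoforms were then compared within each library, where the scaling between libraries has no effect. Per kb of transcript, Eef1a2 was 11.4 and 11.6 times as abundant as Eef1a1 in remaining tissue. In isolated mitochondria the order was turned, with ratios of 0.308 and 0.405. Eef1a2 thus took 91.9% and 92.1% of the summed eEF1A level per kb in remaining tissue, but 23.5% and 28.8% in isolated mitochondria. The means were 92.01% ± 0.100 and 26.2% ± 3.73 (SD, n = 2 each).

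As a share of the reads of both genes, without division by length, Eef1a2 had 26.3% of 209 reads in isolated mitochondria replicate 1 (95% exact binomial interval 20.5 to 32.8) and 32.0% of 463 reads in replicate 2 (27.7 to 36.4). In remaining tissue it had 93.0% of an estimated 17877 reads (92.6 to 93.4) and 93.1% of an estimated 18201 reads (92.7 to 93.5). The intervals of the groups were far apart and those of the 2 libraries within each group overlapped. They cover counting error only. The log2 ratio of Eef1a2 to Eef1a1 changed by -5.02 between the groups (SE 0.20, limma adjusted p = 6.0e-04), a 32.3-fold difference in the mean ratio. Since Eef1a1 itself rose, 85.1% of all genes fell significantly against it, so the size of the change carries more than the call. An exact permutation of the labels of 4 libraries allows no two-sided p smaller than 0.3333, so none was used.

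The summed level of both isoforms per kb was 1231 and 1253 normalized counts in remaining tissue against 1016 and 1248 in isolated mitochondria. The summed eEF1A level was 2.56 and 2.81 times that of Eef2 per kb in remaining tissue and 2.82 and 2.92 times in isolated mitochondria. Both quantities depended on how shared stretches were treated.

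**Figure D2:**
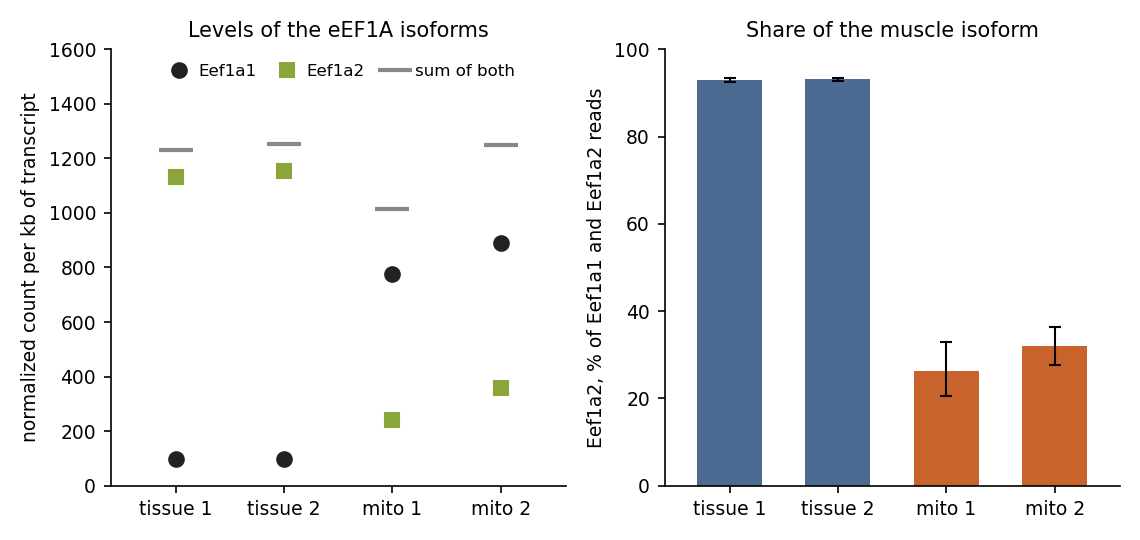
Left, normalized counts per kb of the longest transcript for Eef1a1 (circles), Eef1a2 (squares) and their sum (lines) in the 4 libraries. Right, Eef1a2 as a percentage of the reads of both isoforms, with 95% exact binomial intervals as error bars, at 93.0% and 93.1% in remaining tissue against 26.3% and 32.0% in isolated mitochondria.

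The 2 isoform transcripts could be told apart by exact reads of full length. They aligned over 1385 bases at 80.5% identity and shared no stretch of 75 bases, the read length. Reads shortened by trimming or with mismatches were not examined. Eef1a1 did share 41.7% of its 75-base stretches with 14 other annotated genes, 13 of them pseudogenes, whereas Eef1a2 shared none. Reads that align to several places had been left out by the authors, so reads from such stretches are not in the counts of Eef1a1. The 12 of these 14 genes in the table summed to 83 and 80 normalized counts in remaining tissue against 641 and 723 in isolated mitochondria. Counted per stretch found in no other gene, the share of Eef1a2 was 86.9% and 87.1% in remaining tissue against 15.1% and 19.0% in isolated mitochondria. On that scale the summed eEF1A level was 2.67 and 2.93 times that of Eef2 in remaining tissue against 4.32 and 4.37 times in isolated mitochondria.

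The subunits of eEF1B showed no comparable difference. Eef1b2 (ENSMUSG00000025967), the nucleotide exchange subunit, had 85 and 89 normalized counts in remaining tissue against 90 and 152 in isolated mitochondria, and its log2 change was 0.42 (SE 0.34, limma adjusted p = 0.404). Eef1d (ENSMUSG00000055762), the second exchange subunit, had 119 and 125 normalized counts in remaining tissue against 118 and 137 in isolated mitochondria, with a log2 change of 0.06 (SE 0.22, adjusted p = 0.855). Eef1d was the only gene of the 8 whose groups overlapped. Eef1g (ENSMUSG00000071644), the structural subunit, had 239 and 226 normalized counts in remaining tissue against 217 and 182 in isolated mitochondria, and its log2 change was -0.22 (SE 0.20, adjusted p = 0.457). The log2 change of Eef1b2 was 0.80 without isolated mitochondria replicate 1 and 0.049 without replicate 2. Such fits leave a single library of isolated mitochondria, so their spread comes from remaining tissue alone and no call is given. Eef1b2 overlaps Ndufs1 on the opposite strand. Reads that overlap several genes had been left out, and as the strand setting was not stated, whether this removed reads of Eef1b2 is not known. Ndufs1 itself had 417 and 379 normalized counts in remaining tissue against 208 and 202 in isolated mitochondria. Eef1g shared 56.5% of its 75-base stretches with 4 pseudogenes.

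Eef2 (ENSMUSG00000034994), the translocation factor, had 1486 and 1375 normalized counts in remaining tissue against 1113 and 1320 in isolated mitochondria. Its values in isolated mitochondria lay just below those of remaining tissue. The log2 change was -0.24 (SE 0.18, limma adjusted p = 0.383). It lay 0.20 above the median gene, and its sign depended on the scaling. Eef2 rested on 123 and 261 reads in isolated mitochondria, a depth similar to that of Eef1a1. The change of Eef1a1 was far larger (3.06), so its call does not tell whether one as small as that of Eef2 would pass.

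Tpt1 (ENSMUSG00000060126), an abundant TOP mRNA whose protein has been linked to growth and cell survival, had 1105 and 1205 normalized counts in remaining tissue against 1457 and 1639 in isolated mitochondria. The groups did not overlap, but the log2 change of 0.42 did not pass the test (SE 0.17, limma adjusted p = 0.159). Pabpc1 (ENSMUSG00000022283), which binds the poly(A) tail, had 123 and 125 normalized counts in remaining tissue against 217 and 304 in isolated mitochondria. Both libraries of isolated mitochondria lay above those of remaining tissue, at a ratio of means of 2.10. Its log2 change of 1.04 was just outside the threshold (SE 0.25, adjusted p = 0.0640). It passed in 7 of 16 alternative analyses as higher, among them edgeR on reads (log2 change 1.34, adjusted p = 0.0117). Those 7 include the fits without either library of isolated mitochondria (log2 change 0.80 and 1.29). A single library stands for isolated mitochondria in these fits, so their calls say little.

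Ordered by level per kb of the longest transcript, Eef1a2 led in remaining tissue with 1143 ± 15.6 normalized counts per kb, followed by Tpt1 with 988 ± 60.5, Eef2 with 463 ± 25.4, Eef1g with 125 ± 4.93 and Eef1a1 with 99.2 (178 normalized counts in both libraries; SD, n = 2 throughout). Eef1b2 (44.9 ± 1.46), Pabpc1 (44.0 ± 0.502) and Eef1d (42.9 ± 1.49) came last, and their libraries overlapped. In isolated mitochondria Tpt1 led with 1324 ± 110 normalized counts per kb, followed by Eef1a1 with 833 ± 78.8, Eef2 with 394 ± 47.4 and Eef1a2 with 299 ± 85.2. Eef1g (107 ± 13.3) overlapped with Pabpc1 (92.5 ± 21.8), Pabpc1 with Eef1b2 (62.4 ± 22.6), and Eef1b2 with Eef1d (44.9 ± 4.73). Eef1a1 thus stood in the fifth place in remaining tissue and in the second in isolated mitochondria, and Eef1a2 in the first and the fourth. Among 12623 nuclear protein-coding genes ranked per kb, Eef1a1 stood at 459 and 462 in remaining tissue and at 44 and 26 in isolated mitochondria. Eef1a2 stood at 31 and 32 in remaining tissue and at 163 and 89 in isolated mitochondria. Excluded reads lower the levels per kb of genes with many shared stretches, which made up 56.5% for Eef1g, 41.7% for Eef1a1 and 40.6% for Tpt1. Per 1000 stretches found in no other gene, an analysis added after seeing the data, Tpt1 led in remaining tissue with 1777 ± 109 normalized counts, ahead of Eef1a2 with 1185 ± 16.2, and Eef1g (299 ± 11.8) and Eef1a1 (177 in both libraries) held the fourth and the fifth place. In isolated mitochondria Tpt1 (2382 ± 198), Eef1a1 (1490 ± 141), Eef2 (414 ± 49.8) and Eef1a2 (310.2 ± 88.3) kept their order on this scale. There the libraries of Eef1a2 overlapped with those of Eef1g (256 ± 31.8). Levels of Eef1d and Eef1b2 also rest on the longest annotated form, which need not be the one expressed.

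All these changes depend on how libraries with very different nuclear shares are scaled to each other. Under 4 other scalings, the median log2 change of all genes moved from -0.44 to -0.17 (upper quartile), -0.24 (quantile), 0.60 (total of nuclear protein-coding genes) and -7.33 (total of all genes). The share of all calls that were higher moved accordingly from 44.0% to 58.8%, 56.7%, 90.4% and 0.551%. Scaled to the total of all genes, which is mostly mitochondrial RNA, all 8 genes were lower, Eef1a1 with a log2 change of -3.83 included. Relative to the median gene, the change of Eef1a1 stayed between 3.43 and 3.52 and that of Eef1a2 between -1.86 and -1.50 over the 5 scalings. All scalings but quantile normalization multiply a library by a single factor. Under those this difference can hardly move, so its narrow range is no test of the scaling.

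**Figure D3:**
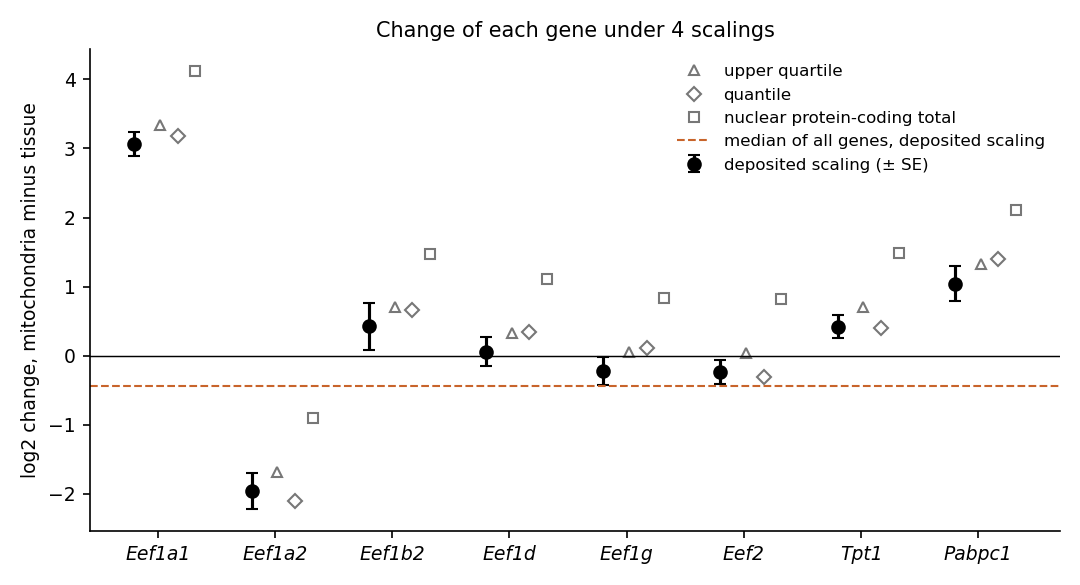
Log2 change of each gene (isolated mitochondria minus remaining tissue) under the deposited scaling (filled circles, error bars ± SE) and 3 other scalings (open symbols), with the median of all genes under the deposited scaling as a dashed line at -0.44. Eef1a1 lies highest and Eef1a2 lowest under each, while Eef2 and Eef1g change sign between scalings; scaling to the total of all genes, not drawn, puts all 8 below 0.

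The other genes of the translation machinery were examined by list. Of 82 cytosolic ribosomal proteins, which are classical TOP mRNAs, 78 were tested, and 13 were higher and 1 lower by limma, with a median log2 change of 0.73. More were higher by other counts, namely 35 at an unadjusted p under 0.05, 50 by edgeR and 56 by DESeq2, while 1 was lower by each. Of all 6916 genes tested, these counts gave 1041, 1106 and 1404 higher and 1516, 871 and 877 lower. The same background applies to the lists below. The median of the 8 genes described here thus lay between that of the ribosomal proteins and that of all genes. The single lower ribosomal protein gene was Rpl3l, named here after its values were seen. Of 13 other TOP mRNAs, all were tested, none was higher (limma; 2 at an unadjusted p under 0.05, 2 by edgeR and 3 by DESeq2) and 1 was lower, with a median of -0.26. The lower gene was Naca, a subunit of the nascent polypeptide-associated complex, with 946 and 897 normalized counts in remaining tissue against 299 and 410 in isolated mitochondria (log2 change -1.39, adjusted p = 0.0317). Rack1, a ribosome-bound scaffold, had 232 and 226 normalized counts in remaining tissue against 217 and 349 in isolated mitochondria, and its groups overlapped. For Naca, leaving out remaining tissue replicate 1 or replicate 2 gave log2 changes of -1.35 and -1.43. The log2 change of Rack1 was 0.61 without isolated mitochondria replicate 1 and -0.077 without replicate 2.

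Among 24 other elongation and termination factors and their regulators, 22 were in the table and 9 were tested. None was higher or lower (limma; 0 higher and 2 lower at an unadjusted p under 0.05, none by edgeR or DESeq2), with a median log2 change of -0.94. Eef2k, the kinase that inhibits eEF2, had 134 and 133 normalized counts in remaining tissue against 45 and 86 in isolated mitochondria (adjusted p = 0.128). Eif5a, which relieves stalled ribosomes, had 220 and 207 in remaining tissue against 100 and 187 in isolated mitochondria (adjusted p = 0.273). Both libraries of isolated mitochondria lay below remaining tissue for these 2 genes, without passing the test. Without isolated mitochondria replicate 1 the log2 change was -0.63 for Eef2k and -0.19 for Eif5a. Without replicate 2 it was -1.55 and -1.09.

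The elongation factors that act inside mitochondria are encoded by nuclear genes and form a separate set. Of 5 such genes, 4 were tested, none passed the test in either direction (limma; 1 higher and 3 lower at an unadjusted p under 0.05, 1 and 2 by edgeR, 1 and 2 by DESeq2), and the median log2 change was -1.95. Tufm, the mitochondrial counterpart of eEF1A, had 104 and 92 normalized counts in remaining tissue against 9 and 30 in isolated mitochondria (log2 change -2.49, adjusted p = 0.0711). The latter rested on 1 and 6 reads. Tufm passed by edgeR (-1.88, adjusted p = 0.0253) and by DESeq2 (-1.85, adjusted p = 0.0104). Its log2 change was -1.67 without isolated mitochondria replicate 1 and -3.30 without replicate 2.

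In the poly(A)-binding family, 5 of 10 genes were in the table, 4 were tested, none was higher (limma; 0 at an unadjusted p under 0.05, 0 by edgeR and DESeq2) and 1 was lower, with a median of -1.34. Pabpc4, a paralogue of Pabpc1, had 314 and 288 normalized counts in remaining tissue against 63 and 66 in isolated mitochondria. All values in isolated mitochondria were far below those of remaining tissue (log2 change -2.20, SE 0.20, limma adjusted p = 0.0128), whereas Pabpc1 had a log2 change of 1.04. The log2 change of Pabpc4 was -2.14 without remaining tissue replicate 1 and -2.27 without replicate 2.

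Of 42 initiation factors and regulators of TOP translation, 37 were tested, none was higher (limma; 2 at an unadjusted p under 0.05, 1 by edgeR and 3 by DESeq2) and 9 were lower, with a median of -0.91. Larp1, which binds the cap and pyrimidine run of TOP mRNAs, had 368 and 372 normalized counts in remaining tissue against 154 and 157 in isolated mitochondria (log2 change -1.25, adjusted p = 0.0253). Tsc1 and Tsc2, which restrain mTOR signalling, were lower as well. Tsc2 had 187 and 176 normalized counts in remaining tissue against 45 and 35 in isolated mitochondria (adjusted p = 0.0195). Tsc1 had 173 and 165 in remaining tissue against 63 and 51 in isolated mitochondria (adjusted p = 0.0279). Eif5b, which joins the ribosomal subunits, had 218 and 213 in remaining tissue against 90 and 91 in isolated mitochondria (adjusted p = 0.0297). Scaled to the total of nuclear protein-coding genes, none of these 4 passed the test. Their log2 changes without remaining tissue replicate 1 were -1.25 (Larp1), -2.12 (Tsc2), -1.52 (Tsc1) and -1.23 (Eif5b). They were -1.24, -2.21, -1.59 and -1.26 without replicate 2, in the same order. Such fits leave a single library of remaining tissue, so no call is given.

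**Figure D4:**
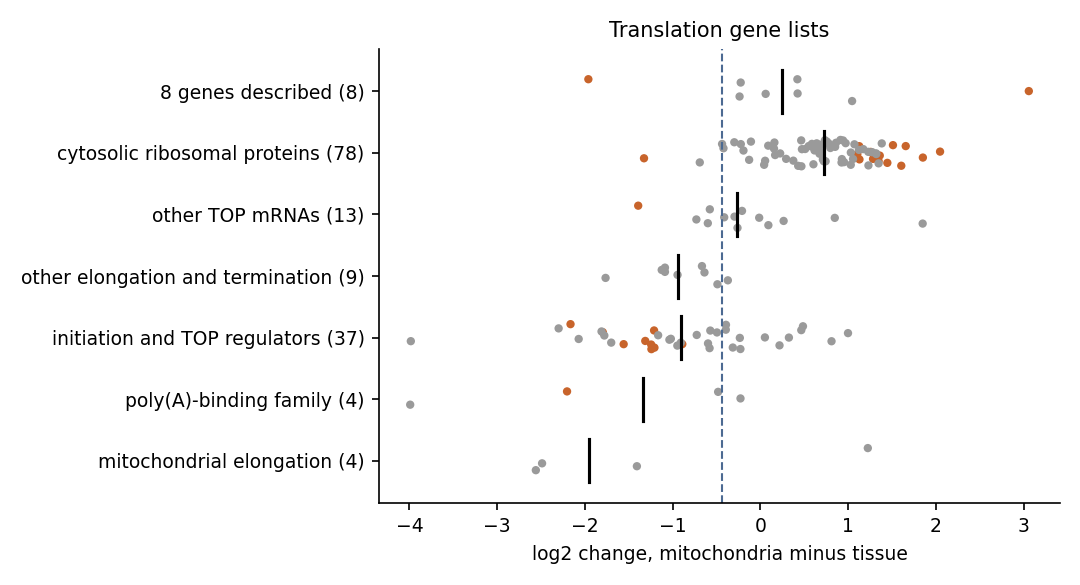
Log2 change (isolated mitochondria minus remaining tissue) of every tested gene of 7 lists, the number tested in parentheses, with called genes (adjusted p under 0.05) in orange, list medians as black lines and the median of all genes as a dashed line at -0.44. Ribosomal proteins lie mostly to the right of this line, with a median of 0.73, and initiation factors mostly to the left, with a median of -0.91; Eef1a1 at 3.06 is the point farthest to the right.

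The genes whose profile over the 4 libraries was nearest to Eef1a1 and Eef1a2 were searched among tested protein-coding genes outside the lists, by Euclidean distance of centred log2 values. Nearest to Eef1a1 were Ccdc88b and Entpd2, with the same values (7 and 7 normalized counts in remaining tissue, then 63 and 71 in isolated mitochondria, distance 0.031 each), and Slc12a7 (17 and 18, then 145 and 167, distance 0.060). Nearest to Eef1a2 were Mybpc1, a myosin-binding protein of the muscle fibre (2108 and 2106, then 452 and 683, distance 0.045), Hivep2 (distance 0.090) and Tlk2 (distance 0.10). Those near Eef1a1 were all weakly covered, while Mybpc1 was about as abundant as Eef1a2.

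Markers of cell types moved in different directions. All 7 muscle fibre markers were lower in both libraries of isolated mitochondria, and their summed normalized counts were 227847 and 238678 in remaining tissue against 39861 and 38858 in isolated mitochondria (6 of 7 called lower). All 5 fibroblast markers were higher, with sums of 1223 and 1343 in remaining tissue against 8017 and 14777 in isolated mitochondria (5 of 5 called higher). All 5 macrophage markers were higher too, with sums of 97 and 119 in remaining tissue against 587 and 723 in isolated mitochondria (4 of 4 tested called higher). No marker of these 3 lists was at 0 in both libraries of a group. All 5 endothelial markers were lower (417 and 416, then 81 and 95, of the 4 tested 1 called by limma and 3 each by edgeR and DESeq2, with Emcn at 0 in isolated mitochondria). Adipocyte markers summed to 190 and 430, then 144 and 207 (Lep at 0 in isolated mitochondria), and erythroid markers to 166 and 177, then 108 and 40. Both libraries of isolated mitochondria lay below remaining tissue for 2 of 5 adipocyte and 4 of 5 erythroid markers, and above it for 0 of either list. Only 3 adipocyte and 2 erythroid markers were tested, and none was called in either direction (limma, 0 also at an unadjusted p under 0.05 and by edgeR and DESeq2). Of 5 neuronal markers 2 were in the table, and their sums were 6 and 4 normalized counts in remaining tissue against 480 and 678 in isolated mitochondria, where Rbfox3 held 471 and 648 after 0 in both libraries of remaining tissue. The part of these cell types in the values of Eef1a1 and Eef1a2 was not tested. In such bulk samples, fewer cells of a type and less RNA per cell cannot be told apart. Isolated mitochondria are a fraction of the tissue, so marker levels there need not follow cell numbers. The centrifugation, the digitonin and RNase A treatment and the shorter fragmentation described for mitochondrial samples coincide with the groups.

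**Figure D5:**
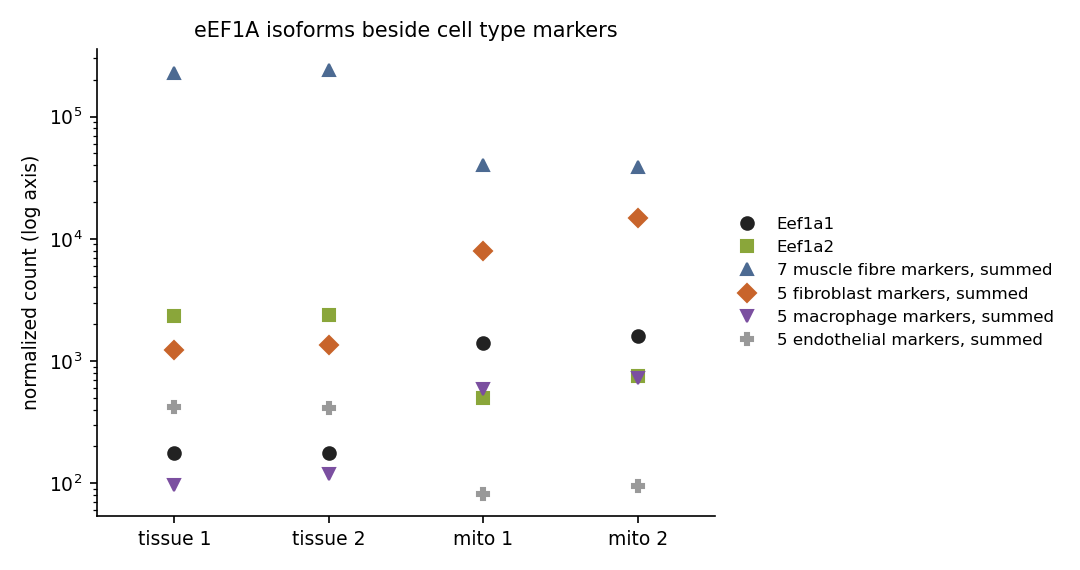
Normalized counts (log axis) of Eef1a1, Eef1a2 and the sums of 4 marker lists in the 4 libraries (tissue, remaining tissue; mito, isolated mitochondria). Under the deposited scaling, Eef1a2 and the muscle fibre and endothelial sums are lower in isolated mitochondria than in remaining tissue. Eef1a1 and the fibroblast and macrophage sums are higher under it. Where libraries are scaled to the total of all genes, Eef1a1 is lower, and the marker sums were not examined. Other marker lists are not drawn.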

How the data were processed

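Muscle RNA was sequenced in 4 libraries, which were grouped by their titles. The methods, written for hearts, describe differential centrifugation and treatment of mitochondria with digitonin and RNase A before RNA isolation, and a low-input total RNA kit. The authors used Trimmomatic 0.39 for trimming and STAR 2.7.10a for alignment to mm10, counted reads per gene with featureCounts 2.0.2, leaving out reads with several genes or places, and used DESeq2 1.30.1 (versions from the submitters' processing notes). The deposited values are a signal, counts divided by a size factor and rounded, which are called normalized counts.

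Whole reads were recovered for isolated mitochondria, where 100% of 10508 and 11660 values under 2000 fell on whole reads (tolerance 0.5). For remaining tissue a common 7.05 reads per normalized count was estimated, assuming equal size factors of its libraries. The low nuclear depth of isolated mitochondria limits precision there.

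Log2(normalized count + 1) was tested with limma 3.58.1 in R 4.3.3 (trend, two-sided, no covariates, mean of at least 20, threshold 0.05). Alternatives were other pseudocounts, filters and scalings, a replicate block, leaving out each library, and edgeR 4.0.16 and DESeq2 1.42.0 on reads. Fits were also run on simulated data. These had equal biological spread in both groups and no set difference in mitochondrial share, so they do not test the scaling. Genes and lists were chosen with earlier results of these data known. All 8 genes were named, and from the other lists up to 4 genes with an adjusted p under the threshold and no overlap between groups, plus Tufm, Pabpc4, Eif5a, Rack1, Larp1 and Eef2k, and the 3 genes nearest to each eEF1A isoform. Lengths, sequences and overlaps came from GENCODE M21 (same build, 16457 gene identifiers found), and isoforms were aligned with BLAST 2.17.0. The result of 1 further marker list is not reported here.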

Additional observations from a re-analysis of the deposited data

How the results depend on the processing

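The direction and call of the change in the Eef1a2 to Eef1a1 ratio were kept in all 11 alternatives (-5.22 to -4.82 when leaving out each library in turn, -5.02 with the replicate block). The 1 gene higher became 0 under scaling to the total of all genes, 6 for the total of nuclear protein-coding genes, 2 for the upper quartile, 2 after quantile normalization, 2 with edgeR, 4 with DESeq2 and 1 to 3 when leaving out a library. The 1 gene lower became 8 and 0 under the first 2 of these and stayed 1 when leaving out a library. For all genes these counts ranged from 37 to 1724 higher and from 155 to 6681 lower. Leaving out a library leaves a lone library in its group, assumed to vary like the other group. Calls gained or lost in those fits therefore say little, for either group.

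Scaling to the total of all genes turned Eef1a1 (-3.83), Eef1b2 (-6.46), Eef1d (-6.83), Tpt1 (-6.48), Pabpc1 (-5.85), Rack1 (-6.63), Ccdc88b and Entpd2 (-3.63 each) and Slc12a7 (-3.74). Scaling to nuclear protein-coding genes turned Eef2 (0.82), Eef1g (0.83) and Eif5a (0.42). Near 0, Eef2 became 0.039 (upper quartile), 0.014 (edgeR) and 0.070 (DESeq2), and Eef1g became 0.051, 0.0088 and 0.040 in the same order and 0.11 after quantile normalization. Leaving out a library gave -0.047 to 0.17 for Eef1d and -0.077 to 0.61 for Rack1. Naca lost its call in 6 of 16 alternatives, Tsc1 in 6, Larp1 and Eif5b in 5 each. The share of Eef1a2 moved to 93.0% in remaining tissue without division by length (29.1% in isolated mitochondria) and, in an analysis chosen after seeing the data, to 87.0% and 17.1% per unique stretch. Leaving out a library gave shares of 91.9% to 92.1% and 23.5% to 28.8%. The causes were not tested.

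No source used here states whether the replicate numbers pair the libraries, and 2 pairs are too few to tell from the values. Differences between replicates of the same number correlated at 0.141 over 6916 genes, and the block left 1 gene higher and 1 lower of the 8, with 630 and 1144 of all genes. Among the genes named, the block changed the call of Tufm only, which was then lower (adjusted p = 0.00202).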

Other observations

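A further pair of muscle and general paralogues among ribosomal proteins was looked up after the values were seen. Rpl3, the general form, had 41 and 43 normalized counts in remaining tissue and 127 and 187 in isolated mitochondria (log2 change 1.85, SE 0.29, limma adjusted p = 0.0302). Rpl3l, the form of heart and skeletal muscle, had 423 and 428 in remaining tissue and 145 and 197 in isolated mitochondria (log2 change -1.33, SE 0.23, adjusted p = 0.0365). In isolated mitochondria Rpl3 rested on 14 and 37 reads and Rpl3l on 16 and 39. Relative to the deposited scaling, both pairs, Rpl3 with Rpl3l and Eef1a1 with Eef1a2, had the general form higher and the muscle form lower. The Rpl3 pair was chosen with its values known, so this likeness is a description only. Its calls were not followed through the alternative analyses.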
